A study of Mus musculus with 6 samples.

Results

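The genes described here are the S100 family members expressed in mouse Lin−CD117+ hematopoietic stem cells (HSCs): *S100a8*, *S100a9*, *S100a1*, *S100a4*, *S100a6*, *S100a10*, *S100a11* and *S100a13*. They were chosen by gene symbol, and all 8 were found among the 18121 genes of the expression table. GA cells were given glycyrrhizic acid (GA), a triterpenoid saponin from licorice root, and were collected after 24 h, and Ctrl cells were kept in normal culture. There were 3 GA and 3 Ctrl libraries. Per the methods, the cells came from the marrow of female C57BL/6 mice aged 8 weeks, depleted of lineage-positive cells and then enriched for CD117, the receptor encoded by *Kit*. The sources used here do not give the GA concentration or the number of animals behind each library. Nothing in the labels says that the 3 libraries of a group came from separate animals or cultures, so a p value here covers the spread of these samples alone, which may be technical.

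S100 proteins are small calcium-binding proteins with a pair of EF-hand motifs, and most of them work as dimers. Calcium opens a surface through which the dimer binds a partner, such as an annexin, a myosin or an enzyme. S100A8 and S100A9 form the heterodimer calprotectin, an abundant cytosolic protein of neutrophils and monocytes. When released, calprotectin binds zinc and manganese and acts as an alarmin on TLR4 and on RAGE, the receptor encoded by *Ager*. In marrow, both genes are switched on as progenitors mature along the granulocyte and monocyte path.

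All 8 members lie on chromosome 3 in the GENCODE annotation, on the assembly GRCm38 (mm10). *S100a1* (gene 20193, 90511034 to 90514392, minus strand) and *S100a13* (gene 20196, 90514435 to 90524581, plus strand) stand head to head, with 42 bases between their annotated 5′ ends. *S100a4* (gene 20198, 90603771 to 90606045), *S100a6* (gene 20200, 90612882 to 90624181) and *S100a8* (gene 20201, 90668978 to 90670035) follow on the plus strand. *S100a9* (gene 20202, 90692632 to 90695721) is on the minus strand, with 22596 bases between it and *S100a8*. *S100a11* (gene 20195, 93520488 to 93526287) and *S100a10* (gene 20194, 93555080 to 93564643) lie 2824766 bases further on, 28792 bases apart. The gene model of *S100a4* shares 2115 bases with another gene of the same strand, *Gm42674*, so its reads could be split between them and its level is less certain.

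*S100a8* and *S100a9* had the largest fold changes of the family, so the bases before their transcription starts are shown, from the RefSeq promoter table (GRCm38.p6), 5′ to 3′ on the strand of the gene. Capitals mark matches to the C/EBP motif TTNNGNAA or the PU.1 motif GAGGAA on either strand. C/EBP and PU.1 are transcription factors of myeloid cells.
S100a8, chr3:90668821-90668977, plus strand: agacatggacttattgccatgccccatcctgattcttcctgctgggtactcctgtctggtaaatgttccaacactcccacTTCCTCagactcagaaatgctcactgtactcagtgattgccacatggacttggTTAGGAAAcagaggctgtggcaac
S100a9, chr3:90695722-90695971, minus strand: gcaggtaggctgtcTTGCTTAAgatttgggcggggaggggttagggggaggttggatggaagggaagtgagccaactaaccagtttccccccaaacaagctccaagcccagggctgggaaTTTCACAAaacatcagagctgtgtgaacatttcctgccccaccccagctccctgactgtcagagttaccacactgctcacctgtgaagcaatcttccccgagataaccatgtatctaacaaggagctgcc
For *S100a8* the 157 bases end where the first exon begins in GENCODE, which starts 93 bases before the RefSeq start. In the whole window of 250 bases before the RefSeq start, *S100a8* held 1 C/EBP match at -117, 2 PU.1 matches at -170 and -36, and the TATA motif TATAAA at -30. *S100a9* held 2 C/EBP matches, at -236 and -130, no PU.1 match and no TATA match. Of 32851 RefSeq promoter windows of this length, 36.9% held a C/EBP match, 23.3% a PU.1 match and 12.4% a TATA match on either strand. Among the other members in that table, *S100a11* had 1 PU.1 match, *S100a4* had 1 TATA match, and *S100a1*, *S100a6* and *S100a13* had no match to any of the motifs. No match overlapped another, and these are letter matches only, as binding was not measured.

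Expression was given as FPKM, the number of fragments scaled per 1000000 mapped and per kilobase of transcript. This puts genes of unlike length on one scale, apart from a trend over length that differed between libraries. Total counts were not given and depth is taken as unknown. GA replicate 1 stood apart, at 14.97 on the first principal component against -5.82 to 0.25 for the other 5 libraries, and it also had the largest sum, 555449 FPKM, against 515444 to 525018 FPKM in GA replicates 2 and 3 and 508672 to 511802 FPKM in Ctrl. Short transcripts ran high in that library. Of the markers of the selection, *Kit* averaged 19.2 ± 2.77 FPKM in GA and 18.1 ± 1.29 FPKM in Ctrl (SD, n = 3 each), with *Cd34*, *Ly6a* and *Flt3* also detected. Megakaryocyte and platelet genes were far more abundant, the 10 listed summing to 18940 to 26190 FPKM in GA and 20860 to 21500 FPKM in Ctrl, and the 12 listed monocyte and macrophage genes summed to 3228 to 3547 FPKM in GA and 2951 to 3362 FPKM in Ctrl. The 5 listed B cell genes summed to 4.43 to 5.84 FPKM in GA and 3.98 to 4.29 FPKM in Ctrl. *Ms4a1* and *Pax5* were at or below 0.02 FPKM in all 6 libraries, *Cd79a* was at 0.41 to 0.84 FPKM in GA and 0.41 to 0.82 FPKM in Ctrl, and *Cd79b*, a subunit of the B cell receptor and the one B cell gene tested, was at 5.0, 4.78 and 3.99 FPKM in GA replicates 1, 2 and 3, against 3.67, 3.15 and 3.64 FPKM in Ctrl replicates 1, 2 and 3, without overlap (log2 fold change 0.31, adjusted p = 0.238 in limma). Of the fibroblast collagens, *Col1a1* was at or below 0.21 FPKM and *Col1a2* was at 0.98 to 1.27 FPKM in GA and 1.19 to 1.27 FPKM in Ctrl.

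The question was how the S100 transcripts of cells exposed to GA for 24 h compared with those of Ctrl cells. The calprotectin genes *S100a8* and *S100a9* had 1.34 and 1.27 times the Ctrl mean in GA, *S100a11* had 1.22 times and *S100a6* had 1.19 times, and the difference of *S100a11* rested mostly on GA replicate 1 (1.08 times without it). *S100a1*, *S100a4*, *S100a10* and *S100a13* overlapped between the groups. In limma, adjusted by Benjamini-Hochberg over all genes tested, 0 of 8 members passed an adjusted p of 0.05, as did 0% of the 10912 genes that averaged 1 FPKM or more. At an unadjusted p under 0.05, 4 of 8 members were higher in GA, against 8.88% of all genes. The 3 GA libraries lay above the 3 Ctrl libraries in 4 of 8 members, against 11.6% of all genes, and below them in none. As deposited, the fold change was above 0 for 8 of 8 members, with a median log2 fold change of 0.20 against 0.012 over all genes. It was above 0 for 7 of 8 after rescaling each library to the same sum, where *S100a10* turned, for 6 of 8 without GA replicate 1, where *S100a1* and *S100a10* turned, and for 5 of 8 with the trend over transcript length removed, where *S100a1*, *S100a4* and *S100a10* turned.

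**Figure D1:**
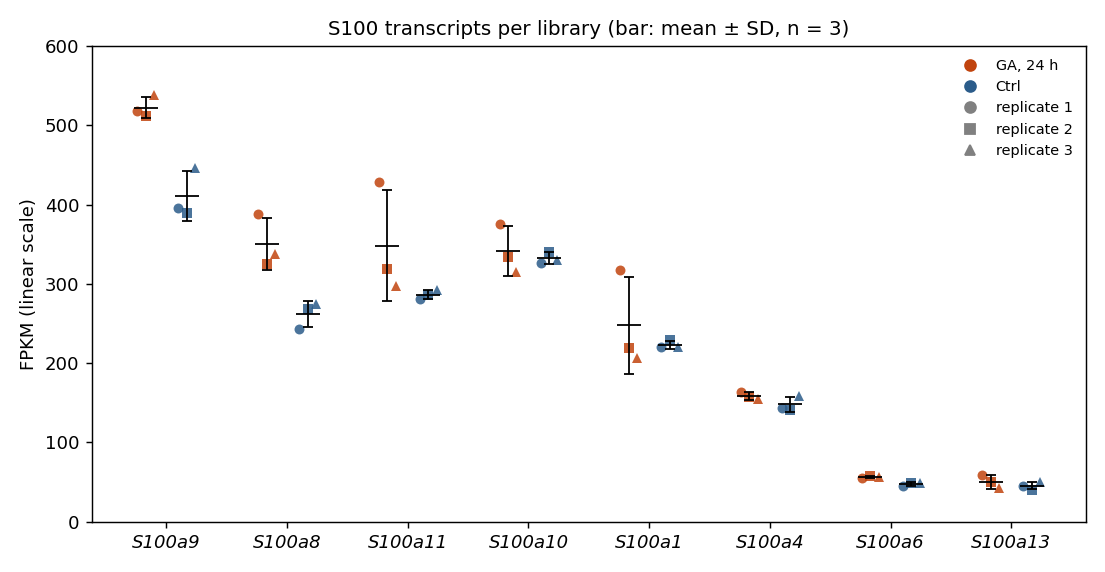
FPKM (vertical axis, linear) of the 8 S100 members in each GA (orange, left) and Ctrl (blue, right) library, ordered by the GA mean, with the replicate shown by the symbol and the mean ± SD (n = 3) as bars. The GA points of *S100a9*, *S100a8*, *S100a11* and *S100a6* lie above all Ctrl points, and GA replicate 1 is well above the other GA libraries for *S100a11* (428 FPKM) and *S100a1* (318 FPKM).

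*S100a8* was at 388, 325 and 338 FPKM in GA replicates 1, 2 and 3, against 243, 269 and 274 FPKM in Ctrl replicates 1, 2 and 3. The lowest GA library lay 51.05 FPKM above the highest Ctrl library, and GA replicate 1 was the highest of all. The means were 350.1 ± 33.1 FPKM in GA and 262 ± 16.5 FPKM in Ctrl (SD, n = 3 each), a ratio of 1.34. The limma log2 fold change was 0.41 with a standard error of 0.073 (95% interval 0.25 to 0.58), and the adjusted p was 0.135. *S100a9* was at 518, 512 and 538 FPKM in GA, against 396, 389 and 447 FPKM in Ctrl. All GA libraries were again above all Ctrl libraries, and here GA replicate 1 fell between the other GA libraries. The means were 522 ± 13.7 FPKM in GA and 410.3 ± 31.6 FPKM in Ctrl (SD, n = 3 each), a ratio of 1.27, with a log2 fold change of 0.35 ± 0.061 (SE, 95% interval 0.21 to 0.49) and an adjusted p of 0.135 in limma. The exact two-sided permutation test over 20 arrangements gave p = 0.1 for each gene, the smallest it can give.

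Without GA replicate 1 both calprotectin genes passed in limma, *S100a8* at a log2 fold change of 0.34 (adjusted p = 0.029) and *S100a9* at 0.36 (adjusted p = 0.036). In that comparison 0.495% of all genes passed as higher in GA. Over 18 alternative settings the log2 fold change ran between 0.25 and 0.47 for *S100a8* (adjusted p 0.029 to 0.492) and between 0.19 and 0.41 for *S100a9* (adjusted p 0.036 to 0.53), above 0 in each. With the length trend removed *S100a8* was at 0.27 (95% interval 0.15 to 0.39) and *S100a9* at 0.21 (95% interval 0.030 to 0.38). With that trend removed and GA replicate 1 left out, *S100a8* was at an adjusted p of 0.0498, and at 0.064 with another form of the trend.

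The proportion of the transcripts of the 2 calprotectin subunits did not separate the groups, and whether it was equal was not tested. The ratio of *S100a9* to *S100a8* was 1.33, 1.57 and 1.59 in GA replicates 1, 2 and 3, against 1.63, 1.45 and 1.63 in Ctrl replicates 1, 2 and 3. The groups overlapped, with GA replicate 1 the lowest library. The difference in the log2 ratio was -0.064 ± 0.099 (SE; exact two-sided permutation p = 0.5, n = 3 each), and its sign depended on that library, as it was 0.017 without it. Together the 2 genes made up 39.3%, 42.4% and 45.0% of the summed FPKM of the 8 members in GA, against 37.6%, 37.7% and 39.6% in Ctrl (exact two-sided permutation p = 0.2), and GA replicate 1 fell within the Ctrl range. The 8 members summed to 2305, 1973 and 1946 FPKM in GA, against 1700, 1742 and 1820 FPKM in Ctrl, which made up 0.376% to 0.415% of the library in GA and 0.334% to 0.356% in Ctrl, and neither measure overlapped between the groups.

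Other genes of neutrophils and of the other marrow lineages were set beside the pair. The RNA was taken in bulk, so more cells of a type and more RNA per cell cannot be told apart. Of 16 listed neutrophil granule genes, which do not include *S100a8* or *S100a9* and not all of which encode granule proteins, 16 had a log2 fold change above 0 (15 with the length trend removed), as did 5981 of the 10912 genes tested (5607 with the length trend removed). None of the 16 (0) passed in limma over all genes, where 0% of all genes passed. At an unadjusted p under 0.05, 8 were higher in GA, against 8.88% of all genes. In 5 the GA libraries lay higher without overlap, against 11.6% of all genes. Once GA replicate 1 was left out, 1 passed as higher in GA, against 0.495% of all genes. The 16 summed to 1387 to 1448 FPKM in GA and 1141 to 1316 FPKM in Ctrl. Relative to the Ctrl mean of each gene, their median log2 deviation was 0.12, 0.20 and 0.26 in GA replicates 1, 2 and 3, against 0.040, -0.13 and 0.068 in Ctrl replicates 1, 2 and 3. The deviation of *S100a8* less that median was 0.45, 0.11 and 0.11 in GA and -0.15, 0.16 and -0.0011 in Ctrl, so the groups overlapped (exact two-sided permutation p = 0.3, n = 3 each). For *S100a9* it was 0.22, 0.12 and 0.13 in GA and -0.090, 0.051 and 0.057 in Ctrl, which did not overlap (exact two-sided permutation p = 0.1, the smallest possible, n = 3 each). The trend over transcript length was not removed from these differences. With it removed, the log2 fold change was 0.27 for *S100a8* and 0.21 for *S100a9*, against a list median of 0.14. As deposited, they were 0.41 and 0.35, against 0.18. Of the 16 list genes only *Retnlg*, named after its values were seen, had a larger fold change than *S100a8* or *S100a9* as deposited. It was at 0.52 (adjusted p = 0.135 in limma), and the next of the list was *Fcnb* at 0.32. The 12 monocyte and macrophage genes had a median log2 fold change of 0.013, and 6 were above 0 and 6 below (5 and 7 after rescaling each library to the same sum, 10 and 2 without GA replicate 1, and 4 and 8 once the trend over length was taken out). Of the 10 megakaryocyte and platelet genes, 7 had a log2 fold change below 0 (9 after rescaling each library to the same sum, and all 10 without GA replicate 1 or with the length trend removed), with a median of -0.084. In 4 of them, *Tubb1* (-0.30), *Vwf* (-0.25), *Itgb3* (-0.20) and *Itga2b* (-0.17), the 3 GA libraries lay below the 3 Ctrl libraries, against 8.29% of all genes. None of the 10 (0) passed in limma with all 6 libraries, 5 were lower in GA at an unadjusted p under 0.05, as were 505 of the 10912 genes, and 3 passed as lower in GA without GA replicate 1, against 0.55% of all genes. The part of a change in cell types in the values of *S100a8* and *S100a9* was not tested beyond these differences.

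**Figure D2:**
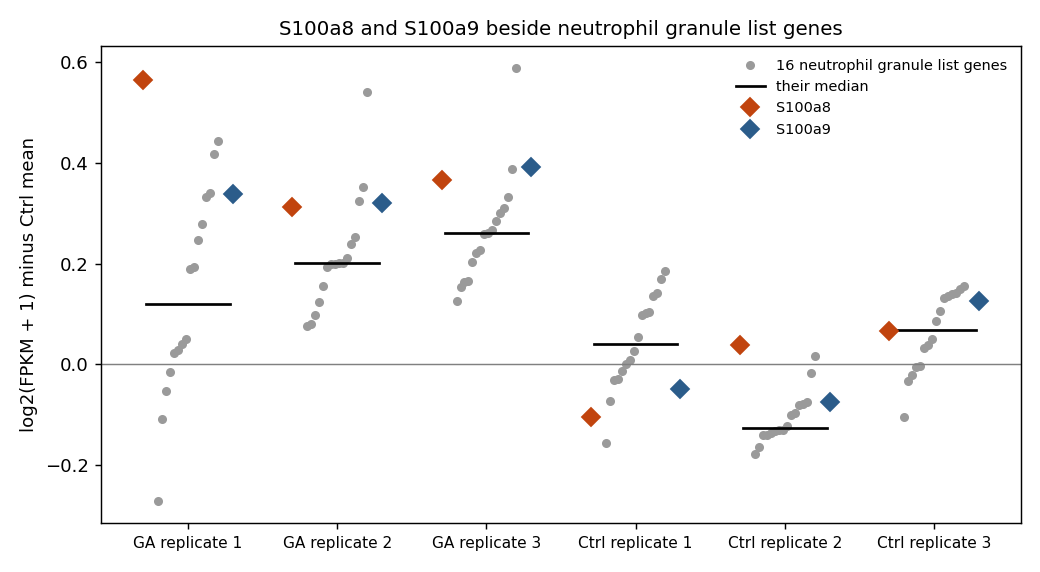
Deviation of log2(FPKM + 1) from the Ctrl mean of the same gene (vertical axis) in the 3 GA libraries (left) and 3 Ctrl libraries (right), for 16 neutrophil granule list genes (grey, with their median as a line), *S100a8* (orange) and *S100a9* (blue). In GA replicates 2 and 3 both diamonds lie 0.11 to 0.13 above the median of the list, and in GA replicate 1 *S100a8* lies 0.45 above it. The trend over transcript length is not removed.

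Among all tested genes, the pattern of *S100a9* over the 6 libraries was not the one most like that of *S100a8*. Likeness was the root mean square distance between log2(FPKM + 1) values, each gene centred on its own mean, for which the median gene lay at 0.243 from *S100a8* and 0.197 from *S100a9*. The nearest to *S100a8* were *Pam16* (0.052), a subunit of the mitochondrial import motor, *Myl10* (0.063), a myosin light chain, *Mcrip2* (0.069), *Mcee* (0.077), methylmalonyl-CoA epimerase, and *Lst1* (0.079), a leukocyte transcript. *S100a9* ranked 41 at 0.10, *S100a11* 168 and *S100a6* 191. The nearest to *S100a9* were *Ceacam10* (0.054), *Gm9733* (0.060), *Myl10* (0.062), *Tubd1* (0.064), a delta tubulin, and *Gmfg* (0.066), a regulator of actin branching. *Ceacam10* and *Gm9733* were low, averaging 2.06 and 2.25 FPKM in GA and 1.52 and 1.76 FPKM in Ctrl. The log2(FPKM + 1) scale understates the changes of such low genes, which enters their distances. *S100a6* ranked 33 at 0.083 and *S100a8* ranked 127. *Myl10*, the gene on both lists, was at 10.1, 9.43 and 9.33 FPKM in GA and 6.86, 6.91 and 7.36 FPKM in Ctrl.

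*S100a6*, calcyclin, binds CacyBP, an adaptor of a ubiquitin ligase. It was at 55.0, 57.9 and 56.0 FPKM in GA replicates 1, 2 and 3, against 45.1, 48.2 and 49.0 FPKM in Ctrl replicates 1, 2 and 3. The groups did not overlap, and unlike *S100a8* the gene was lowest among GA libraries in GA replicate 1. The means were 56.3 ± 1.47 FPKM in GA and 47.5 ± 2.04 FPKM in Ctrl (SD, n = 3 each), with a log2 fold change of 0.24 ± 0.048 (SE, 95% interval 0.14 to 0.35), an adjusted p of 0.172 in limma and an exact two-sided permutation p of 0.1. Without GA replicate 1 the log2 fold change was 0.26 (adjusted p = 0.046), the only setting of 18 in which it passed. With the length trend removed it was 0.12 (95% interval -0.019 to 0.25, adjusted p = 0.596 in limma). *Cacybp* itself was at 47.4 ± 0.381 FPKM in GA and 46.1 ± 1.69 FPKM in Ctrl (SD, n = 3 each). The ratio of *S100a6* to *Cacybp* was 1.16, 1.22 and 1.19 in GA against 0.991, 1.004 and 1.09 in Ctrl, without overlap (exact two-sided permutation p = 0.1, the smallest possible, n = 3 each). The trend over length was not removed from this ratio, and *Cacybp* has 2098 nucleotides against 731 for *S100a6*.

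*S100a4*, known as metastasin, binds the heavy chain of non-muscle myosin, encoded by *Myh9*. It was at 164, 157 and 154 FPKM in GA, against 143, 141 and 159 FPKM in Ctrl, where Ctrl replicate 3 lay within the GA range. The log2 fold change was 0.10 ± 0.054 (SE, 95% interval -0.020 to 0.22, adjusted p = 0.454 in limma). *Myh9*, its partner, was at 421, 439 and 449 FPKM in GA and 508, 506 and 483 FPKM in Ctrl, all GA libraries below all Ctrl libraries, at a log2 fold change of -0.19 ± 0.049 (SE) and an adjusted p of 0.217 in limma.

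Among the members that bind annexins are *S100a10* and *S100a11*. *S100a10*, which has lost calcium binding, forms a tetramer with annexin A2 at membranes. It was at 376, 333 and 315 FPKM in GA, against 326, 340.2 and 330.3 FPKM in Ctrl. GA replicate 1 was the highest and GA replicate 3 the lowest of the 6 libraries, and the log2 fold change was 0.035 ± 0.064 (SE, 95% interval -0.11 to 0.18, adjusted p = 0.873 in limma). The sign turned in 6 of the 18 alternative settings. *Anxa2*, its partner, was at 41.7, 49.1 and 48.5 FPKM in GA and 41.5, 38.9 and 45.6 FPKM in Ctrl, so *S100a10* stood at 6.50 to 9.01 times *Anxa2* in GA and 7.24 to 8.74 times in Ctrl. *S100a11* (calgizzarin), which binds annexin A1, was at 428, 319 and 297 FPKM in GA replicates 1, 2 and 3, against 281, 286 and 292 FPKM in Ctrl. The groups did not overlap, but GA replicate 3 lay only 5.17 FPKM above Ctrl replicate 3. The means were 348 ± 70.2 FPKM in GA and 286 ± 5.41 FPKM in Ctrl (SD, n = 3 each), with a log2 fold change of 0.26 ± 0.11 (SE, 95% interval 0.012 to 0.51) and an adjusted p of 0.350 in limma. Without GA replicate 1 the log2 fold change was 0.10 (95% interval 0.015 to 0.19, adjusted p = 0.178).

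*S100a1* and *S100a13*, the head-to-head pair, had their highest values in GA replicate 1. *S100a1*, best known in heart and muscle, where it modulates the calcium pump and the ryanodine receptor, was at 318, 219 and 206 FPKM in GA, against 219.9, 229 and 219.99 FPKM in Ctrl. GA replicates 2 and 3 were below each of the Ctrl libraries, so the log2 fold change of 0.12 ± 0.13 (SE, 95% interval -0.17 to 0.42, adjusted p = 0.753 in limma) turned to -0.070 (95% interval -0.16 to 0.017, adjusted p = 0.336) without GA replicate 1. *S100a13*, which takes part in the export of FGF1 and interleukin-1 alpha, was at 59.3, 50.2 and 41.8 FPKM in GA and 45.4, 40.4 and 49.4 FPKM in Ctrl. Its log2 fold change was 0.15 ± 0.11 (SE, 95% interval -0.10 to 0.40, adjusted p = 0.617 in limma) and 0.028 without GA replicate 1. The ratio of *S100a13* to *S100a1* was 0.187, 0.230 and 0.203 in GA and 0.207, 0.176 and 0.225 in Ctrl, and so overlapped in each direction (exact two-sided permutation p = 0.8, n = 3 each).

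**Figure D3:**
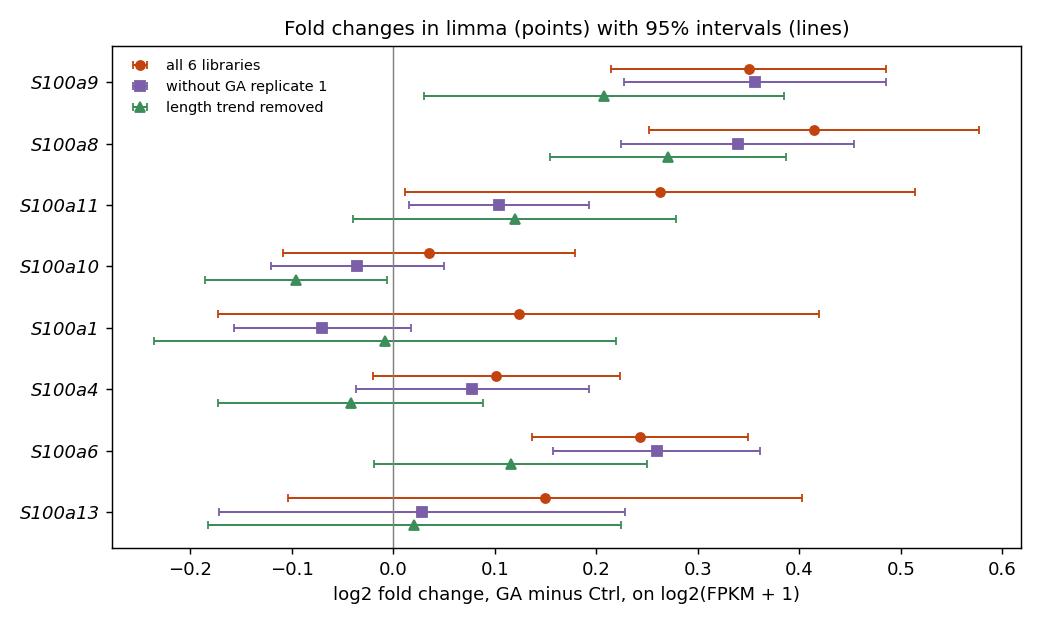
Log2 fold change, GA minus Ctrl, on the log2(FPKM + 1) scale (horizontal axis) for each member, with 95% intervals from limma as lines, for all 6 libraries (orange circles), without GA replicate 1 (purple squares) and with the length trend removed (green triangles). The points of *S100a8* and *S100a9* stay above 0 under each of the 3 (0.21 to 0.41), as do those of *S100a6*, *S100a11* and *S100a13*. Those of *S100a10*, *S100a1* and *S100a4* are on both sides of 0.

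The order of the levels put *S100a9* first in both groups, apart from the next member in every library. In GA, *S100a8*, *S100a11*, *S100a10* and *S100a1* followed with means of 350.1, 348, 341 and 248 FPKM, each overlapping its neighbour in the order. In Ctrl the order was *S100a10* at 332, *S100a11* at 286, *S100a8* at 262 and *S100a1* at 223 FPKM, with no overlap between neighbours. *S100a4* came sixth and *S100a6* and *S100a13*, which overlapped in both groups, came last. By mean FPKM over the 6 libraries *S100a9* ranked 181, *S100a10* 229, *S100a11* 245, *S100a8* 253, *S100a1* 320, *S100a4* 530, *S100a6* 1683 and *S100a13* 1830 among the 18121 genes. The spread between replicates was 2.62% (coefficient of variation) for *S100a9* and 2.61% for *S100a6* in GA, but 20.2% for *S100a11* and 24.7% for *S100a1*, against 1.89% for *S100a11* and 2.42% for *S100a1* in Ctrl.

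What the members share besides their family is a short transcript. Their lengths ran from 486 nucleotides for *S100a8*, 498 for *S100a4*, 511 for *S100a11* and 519 for *S100a9* to 677 for *S100a1*, 685 for *S100a10*, 715 for *S100a13* and 731 for *S100a6*. Only 2.81% of the tested genes with a known length were as short as the longest of them, and the median tested gene had 2811 nucleotides. Only 0.737% were as short as *S100a9*, so for *S100a8* and *S100a9* the trend was read near the short end of the range. At the lengths of the members the trend of all genes, relative to Ctrl, was 0.22 to 0.29 on the log2 scale in GA replicate 1, 0.10 to 0.11 in GA replicate 2 and 0.035 to 0.054 in GA replicate 3. *S100a8* exceeded it in each GA library, with deviations of 0.56, 0.31 and 0.37 from the Ctrl mean in GA replicates 1, 2 and 3 against a trend of 0.29, 0.11 and 0.035. *S100a9* did so too, with 0.34, 0.32 and 0.39 against 0.28, 0.11 and 0.038. *S100a4* lay below its trend in GA replicates 1 and 2 (0.15 and 0.092 against 0.28 and 0.11), and *S100a10* below it in all 3 (0.18, 0.0047 and -0.076 against 0.24, 0.11 and 0.052). *S100a11*, slightly shorter than *S100a9*, also exceeded its trend in the 3 GA libraries, with deviations of 0.58, 0.15 and 0.054 against 0.28, 0.11 and 0.037. Whether the trend came from the treatment or from the preparation of these libraries cannot be told apart in this design.

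**Figure D4:**
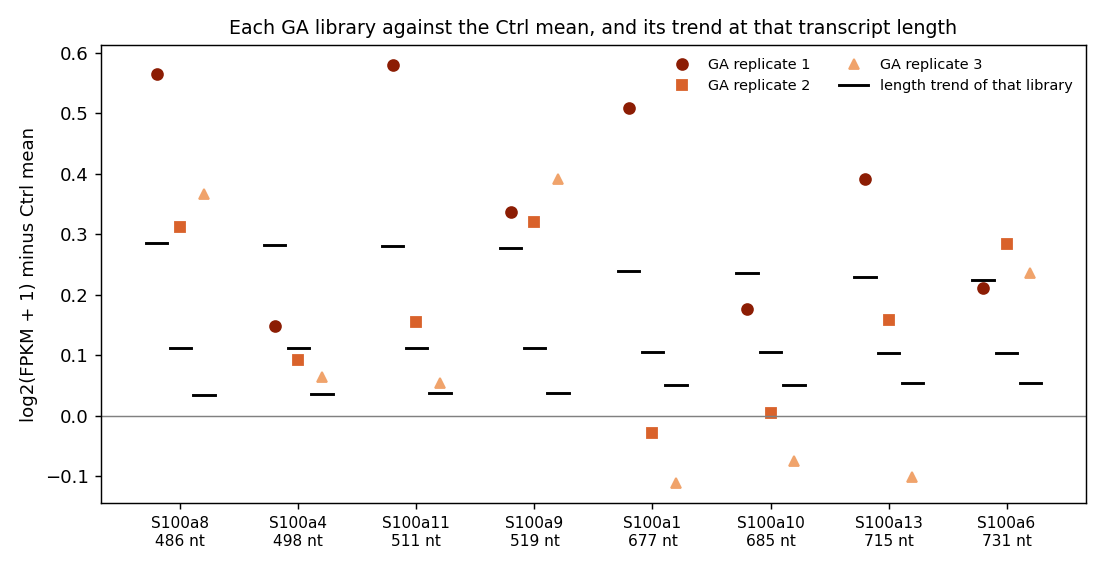
Deviation of log2(FPKM + 1) from the Ctrl mean (vertical axis) in GA replicates 1 to 3 (symbols) for each member, ordered by transcript length in nucleotides (nt), with the trend of all tested genes at that length in the same library as a black line. The symbols of *S100a8*, *S100a9* and *S100a11* lie above their lines in all 3 GA libraries, those of *S100a10* lie below, and those of *S100a1* lie above only in GA replicate 1.

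The rest of the family was close to silent. Of 9 other genes of the table with a symbol beginning S100, 8 averaged under 1 FPKM: *S100a3*, *S100a5*, *S100a7a*, *S100a14*, *S100a16*, *S100b*, *S100g* and *S100z*, all at or below 0.51 FPKM in each library. The ninth, *S100pbp*, encodes a nuclear protein that binds S100P and is not itself an S100 protein, and was at 8.31 ± 0.318 FPKM in GA and 8.55 ± 0.360 FPKM in Ctrl (SD, n = 3 each). The fused S100 genes of the epidermis in the table, *Flg*, *Tchh* and *Crnn*, stayed at or below 0.20 FPKM. Between *S100a1* and *S100a10* on the chromosome the table held 13 genes besides the members, and 0 of them averaged 1 FPKM. Thus *S100a3*, which lies between *S100a13* and *S100a4*, *S100a5*, between *S100a4* and *S100a6*, and *S100a7a*, between *S100a6* and *S100a8*, averaged 0.045, 0.24 and 0.013 FPKM beside members that averaged 47.8 FPKM or more. The long gap between *S100a9* and *S100a11* held 8 of the 13, among them the skin barrier genes *Lor*, *Ivl* and *Flg*.

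Of 22 listed binding partners of S100 proteins 16 were tested, 10 with a log2 fold change above 0 and 6 below (7 and 9 after rescaling each library to the same sum, 9 and 7 once the trend over length was taken out, and 11 and 5 when GA replicate 1 was left out), with a median of 0.037 and 0 past the adjusted p in limma. Besides *Myh9*, the annexin gene *Anxa5* had the smallest p, at 139 ± 2.09 FPKM in GA and 129.8 ± 1.94 FPKM in Ctrl (SD, n = 3 each) without overlap, a log2 fold change of 0.10. *Anxa2* followed at 0.14. *Sugt1*, a chaperone partner of *S100a6* named after its values were seen, did not overlap either, at 0.076. Of the 16, 2 lay higher and 1 lower in GA without overlap, against 11.6% and 8.29% of all genes. *Anxa1* was at 0.11 and *Cybb*, a subunit of the phagocyte NADPH oxidase that calprotectin assists, at -0.069. *Ryr1*, *Ryr2*, *Fgf1*, *Syt1*, *Plat* and *Plg*, the partners known from muscle, nerve and plasma, averaged under 1 FPKM and were not tested.

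Rescaling moved all genes together, so that 3641 of the 10912 were above 0 after it, against 5981 before. All 10 listed receptors for released S100 proteins were tested, and 5 were above and 5 below 0 (4 and 6 after rescaling, 3 and 7 once the trend over length was taken out, and 7 and 3 when GA replicate 1 was left out), with 0 past the adjusted p in limma and a median log2 fold change of 0.0033. *Ly96*, which encodes MD-2, the partner of TLR4 in ligand binding, was at 5.34, 4.93 and 5.0 FPKM in GA, against 3.51, 3.89 and 4.59 FPKM in Ctrl. It was the only 1 of the 10 receptor genes without overlap. Over all genes, 11.6% lay higher and 8.29% lower in GA without overlap. The log2 fold change of *Ly96* was 0.29 ± 0.087 (SE), with an adjusted p of 0.245 in limma. Its transcript is short, at 530.5 nucleotides, and this value keeps the trend over length. *Tlr4* itself was low, at 1.48, 1.85 and 1.86 FPKM in GA and 1.84, 1.81 and 1.80 FPKM in Ctrl. The next smallest p values were those of *Fpr1*, *Fpr2* and the scavenger receptor *Msr1*, at 0.15, 0.11 and -0.12. The most abundant was *Bsg* (basigin), at 369 ± 36.2 FPKM in GA and 360.5 ± 8.93 FPKM in Ctrl (SD, n = 3 each), a gene named after its values were seen.

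All 10 listed transcription factors that act on the calprotectin genes were tested, 5 above and 5 below 0 (4 and 6 after rescaling), with a median of 0.0024 and 0 past the adjusted p in limma. *Spi1*, which encodes PU.1, was at 82.5, 79.8 and 82.0 FPKM in GA, against 74.5, 70.0 and 75.5 FPKM in Ctrl, without overlap and with a log2 fold change of 0.15 ± 0.045 (SE, adjusted p = 0.245 in limma). The 4 C/EBP genes listed overlapped between the groups, and their difference from *Spi1* was not tested. *Cebpa* was at 19.7 ± 0.396 FPKM in GA and 20.1 ± 1.32 FPKM in Ctrl, *Cebpb* at 81.4 ± 1.27 and 85.5 ± 4.68 FPKM, *Cebpd* at 9.93 ± 0.487 and 9.70 ± 1.23 FPKM, and *Cebpe* at 2.61 ± 0.297 and 2.96 ± 0.367 FPKM in GA and Ctrl (SD, n = 3 each). *Trp53* was at a log2 fold change of 0.075. *Hif1a*, named after its values were seen, was lower in each GA library, at 20.5, 22.1 and 22.1 FPKM against 22.5, 22.3 and 22.6 FPKM in Ctrl, a log2 fold change of -0.058 with an adjusted p of 0.671 in limma. Of the 10, 1 lay higher and 1 lower in GA without overlap, against 11.6% and 8.29% of all genes.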

How the data were processed

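Total RNA of 6 libraries was extracted with TRIzol and sequenced on a BGISEQ-500 instrument, per the labels. Adaptor, poly-N and low-quality reads were removed by the authors. The submitters' processing notes name HISAT2 2.0.4, Bowtie2 2.2.5 and mm10, and the methods add that RSEM gave the expression values. The deposited values are FPKM, which the authors wrote with 2 decimals. Annotation, strand setting and read length are not given in the sources used here. Because FPKM is relative to transcript length, a library in which short transcripts are favoured shows higher values for short genes.

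Libraries were grouped by title, and 0 columns of per-sample values lacked a sample. The authors' group means were not used. No pair of libraries shared more than 0.651% identical values. In genes of a single transcript length, 44.3% to 50.5% of low values lay within 0.15 of a whole number of fragments, too few to recover reads. So no test on counts was used. limma was fitted on the log scale, and the exact permutation tests of single genes used FPKM.

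limma 3.58.1 in R 4.3.3 was fitted with a mean-variance trend, two-sided, to log2(FPKM + 1) of the 10912 genes averaging 1 FPKM or more, without a replicate block, and p values were adjusted by Benjamini-Hochberg over all of them, with a threshold of 0.05. Fold changes on this scale understate the change of low genes. Single values were also compared by exact permutation. Lengths (the median over GENCODE transcripts with a RefSeq match, for 95.0% of genes) served to remove the trend of each library by a loess fit of span 0.5. The fit was tested on simulated data. Promoter windows from RefSeq matched 7 of 8 members, and *S100a10* had none. The alternatives were other pseudocounts, filters and scalings, limma without the trend, a replicate block, the length trend removed and each library left out. A length trend of another form was added after the data were seen.

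All members were named, with every other S100 gene, the 4 genes of smallest p in the partner, receptor and regulator lists, *Anxa2*, *Cacybp*, *Myh9*, *Tlr4* and *Cebpa*, and the 5 genes most like *S100a8* and *S100a9*. A gene that this rule takes from the partner list is not reported here. Members and lists were chosen with earlier results of these data known.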

Additional observations from a re-analysis of the deposited data

How the results depend on the processing

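Of the members' fold changes, those of *S100a6*, *S100a8*, *S100a9* and *S100a11* kept their sign in all 18 alternatives. Without GA replicate 1, 114 genes passed in limma, among them *S100a8*, *S100a9* and *S100a6*, so 3 members were called, while no other library left out gave a call (0). With single libraries left out the log2 fold change ran from 0.34 to 0.47 for *S100a8*, from 0.31 to 0.41 for *S100a9* and from 0.21 to 0.27 for *S100a6*. The log2 fold change of *S100a1* ran from -0.070 to 0.24 and that of *S100a10* from -0.036 to 0.091 when single libraries were left out, the values below 0 coming without GA replicate 1. The log2 ratio of *S100a9* to *S100a8* ran from -0.12, without Ctrl replicate 2, to 0.017, without GA replicate 1. The cause was not tested. Rescaling each library to the same sum gave 3 called genes, none a member, and turned *S100a10* to -0.024. Removing the length trend turned *S100a1* (-0.0085), *S100a4* (-0.042) and *S100a10* (-0.096), and with a trend of straight lines these were at -0.013, -0.058 and -0.0998. With straight lines 2 members did not overlap between the groups. The share of all genes without overlap was not taken in that setting, so this count has no background to be read against. Leaving out GA replicate 1 and removing the trend called 108 genes and 1 member, *S100a8* (0.27), with *S100a1* at -0.15, *S100a10* at -0.11 and *S100a13* at -0.050. With straight lines it called 105 genes and 0 members, *S100a8* at an adjusted p of 0.064, with *S100a1* at -0.151, *S100a4* at -0.0068, *S100a10* at -0.116 and *S100a13* at -0.052. Deviations of same-numbered libraries from their group means correlated at -0.169, -0.13 and 0.0039. With 3 libraries a group and GA replicate 1 apart, these values cannot settle whether the libraries were paired. With a replicate block 0 genes passed in limma, *S100a8* at 0.41 (adjusted p = 0.358) and *S100a9* at 0.35 (adjusted p = 0.352). For the ratio the replicate block gave -0.064 ± 0.118 (SE). The number of libraries, 3 a group, and the unknown depth limit the precision.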
